A study of Mus musculus with 9 samples.

Results

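The 7 enteric glia genes Sox10, S100b, Gfap, Erbb3, Foxd3, Sox2 and Cdh19 were followed in colon tissue of 9 wild-type mice. They were taken as a list by symbol, matched through their Ensembl identifiers, and all 7 were found among the 22262 genes detected in at least 1 library. The mice were wild-type female C57BL/6N animals aged 12 months. The 4 WT_SE mice (numbers 1, 2, 3 and 5) lived in the standard environment of ordinary cages, and the 5 WT_EE mice (numbers 1 to 5) lived from weaning in an enriched environment, larger shared cages with more bedding, tunnels, running wheels and objects that were changed around. Because mice of an environment shared cages, and the labels do not say which, cage and environment cannot be told apart. Each library came from a whole piece of colon wall, labelled as upper colon, so fewer glia and less RNA per glial cell cannot be told apart either.

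Enteric glia are the supporting cells of the gut's own nervous system. They wrap the neurons of the plexuses that lie within the muscle coat and beneath the mucosa, follow nerve fibres into the mucosa, and come from the neural crest, like the neurons. Sox10 is the transcription factor that neural crest cells need to become glia and that mature enteric glia keep, Foxd3 and Sox2 are transcription factors of neural crest and glial precursors, and Erbb3 is a receptor for neuregulins through which neural crest and glial cells survive and grow. S100b, a calcium-binding protein, and Gfap, an intermediate filament protein, are the proteins most often stained to see enteric glia, and Cdh19 is a cadherin of the glial lineage. Erbb3 is also made by gut epithelium, S100b by fat cells and Sox10 by melanocytes.

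Promoter windows from RefSeq on GRCm38.p6, covering 250 bases before and 50 bases after a transcript start, were found for 4 of the 7 genes. Those shown are of the classical marker proteins S100b and Gfap and that of Sox2, whose window was the only 1 of the 4 with a match to a short SOX-type motif. The motifs searched on both strands were ACAAAG, which 18.7% of all 32851 windows of this length hold, ACAATG, which 12.6% hold, and the TATA motif TATAAA, which 13.6% hold. The capitals mark the single match, ACAAAG starting at position -206 from the RefSeq start of Sox2. The S100b window lies on the plus strand at chr10:76253586-76253885, the Gfap window on the minus strand at chr11:102897151-102897450 and the Sox2 window on the plus strand at chr3:34649745-34650044, each printed 5′ to 3′ along its gene. The RefSeq start behind the Gfap window lies inside the gene as GENCODE draws it. The whole Sox2 window lies before the Sox2 gene as GENCODE draws it, which starts at base 34650405.
S100b: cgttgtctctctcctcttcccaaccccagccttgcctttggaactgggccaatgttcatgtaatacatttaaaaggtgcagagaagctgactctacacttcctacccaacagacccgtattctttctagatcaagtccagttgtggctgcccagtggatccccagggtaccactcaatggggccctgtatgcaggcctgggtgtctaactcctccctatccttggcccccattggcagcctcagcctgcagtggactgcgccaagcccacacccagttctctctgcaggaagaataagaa
Gfap: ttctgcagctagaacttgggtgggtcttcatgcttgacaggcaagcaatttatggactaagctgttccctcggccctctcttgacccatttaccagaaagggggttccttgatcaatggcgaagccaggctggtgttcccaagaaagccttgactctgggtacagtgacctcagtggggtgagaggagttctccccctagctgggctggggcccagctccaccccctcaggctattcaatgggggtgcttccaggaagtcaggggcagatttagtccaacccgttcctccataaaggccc
Sox2: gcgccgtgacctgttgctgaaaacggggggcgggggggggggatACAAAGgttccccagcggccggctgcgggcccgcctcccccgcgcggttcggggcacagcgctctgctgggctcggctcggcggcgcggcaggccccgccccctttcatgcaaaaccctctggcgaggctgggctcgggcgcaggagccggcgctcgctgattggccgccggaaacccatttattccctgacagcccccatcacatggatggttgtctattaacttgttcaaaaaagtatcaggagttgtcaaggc
The Sox2 window is rich in G and C (66.3%), as is the window of Foxd3 (65.7%), which is not printed. The share was 53.7% for S100b and 55.7% for Gfap, where the median of all windows was 52.7%. The libraries counted molecules at the other end of the transcript, next to the poly(A) tail, so these windows bear on no count below.

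The deposited values were molecule counts per gene, in which amplification copies had been removed by unique molecular identifiers. Totals per library were 299062 to 383401 in WT_SE and 295535 to 454043 in WT_EE. The floor for a detectable level was set at 3 counts, which is 6.61 to 10.2 CPM (counts scaled to a common library total) before TMM normalization, and intervals from counts cover counting error only. All CPM values below are TMM-normalized. Libraries differed in the tissue they held. Adipoq, a hormone gene of fat cells, had 70 counts in WT_SE mouse 1, 29 in WT_EE mouse 3, 15 in WT_SE mouse 3, 7 to 9 in WT_EE mice 1, 2 and 4, and 0 in the other 3 libraries. Slc10a2, a bile acid transporter gene, had 103 to 117 counts in WT_SE mice 2 and 3 and WT_EE mice 1 and 3 and 3 to 26 counts in the other 5. The library names of WT_SE mice 1 and 3 differ from the other 7 in a digit, which no WT_EE library shares.

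Transcripts of the members other than Erbb3 were scarce in these colon pieces. The 7 genes together gave 752 molecules in 9 libraries, and 578 of these (76.9%) were Erbb3. The other 6 genes gave 174 molecules, 65 in WT_SE and 109 in WT_EE. Summed and normalized, these 6 genes stood at 46.4 ± 16.7 CPM in WT_SE (SD, n = 4) and 58.7 ± 22.6 CPM in WT_EE (SD, n = 5), and both groups reached down to 30.1 CPM in their mouse 5. The 3 highest libraries were WT_EE mouse 4 at 83.5 CPM, WT_EE mouse 2 at 80.2 CPM and WT_SE mouse 2 at 69.6 CPM, so the high libraries came from both environments. The 3′ libraries count a molecule once whatever its length, so counts were set side by side between genes without a length correction. The highest count of any gene was 1177 to 1393 per library. Whether counts of abundant genes rise in proportion to their RNA was not tested.

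No member differed between the environments by the tests used. With edgeR's quasi-likelihood test, 0 of the 7 genes had an unadjusted p-value under 0.05, where 7.65% of the 17441 genes tested did, and 0 of 7 had a Benjamini-Hochberg adjusted p-value under 0.05, where 0.0401% of all genes did. For 0 of 7 did the normalized values of the groups lie apart without overlap, against 2.58% of all genes tested. DESeq2 and limma-voom also gave 0 of 7 at an unadjusted p-value of 0.05. Of the log2 fold changes (WT_EE minus WT_SE), 4 were above and 3 were below 0, with a median of 0.32, where the median of all genes tested was 0.01. The 3 below 0 include Sox2, whose fitted value rests on 5 molecules. At these counts the intervals were wide, and for the 6 genes other than Erbb3 the upper bound lay between 1.68-fold (Cdh19) and 5.72-fold (Gfap), so that even large differences could have gone undetected.

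**Figure D1:**
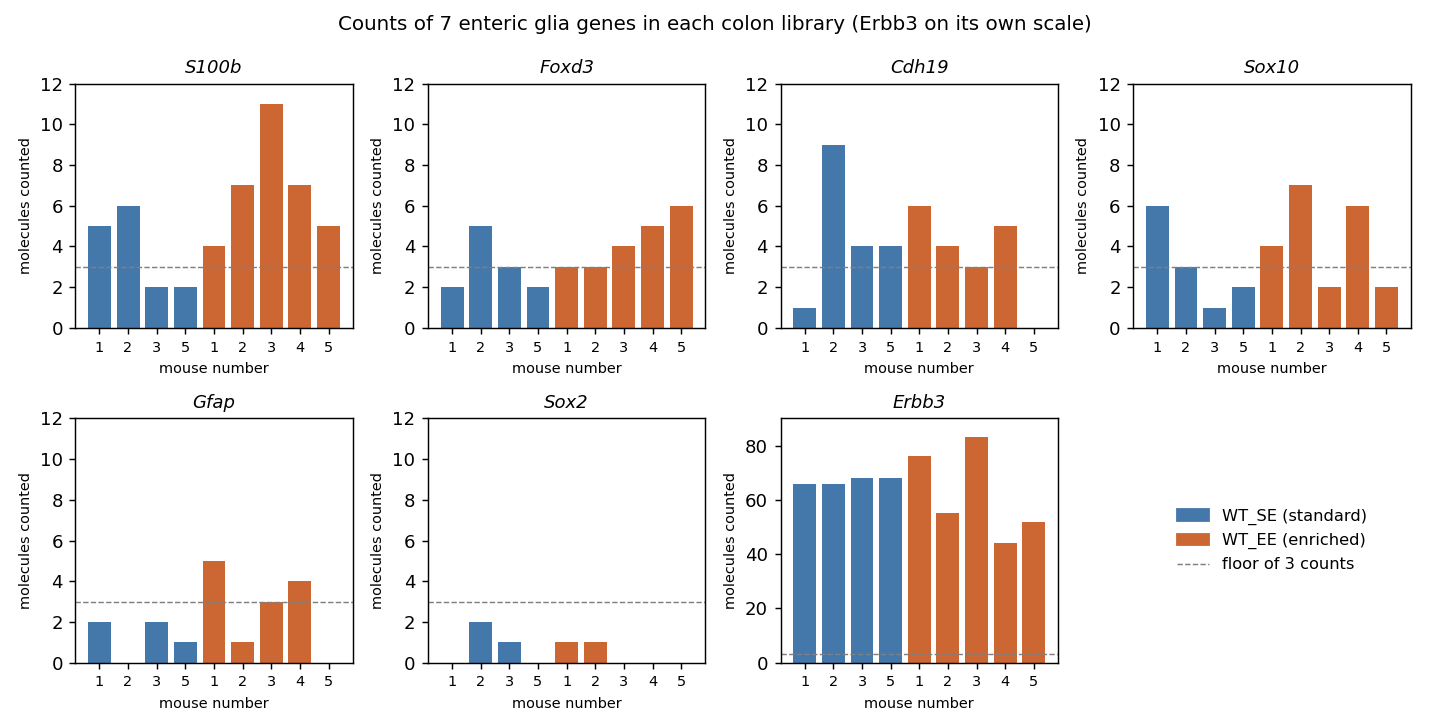
Molecules counted for each of the 7 enteric glia genes (vertical axis) in each mouse (horizontal axis, mouse numbers), with WT_SE in blue, WT_EE in orange, the floor of 3 counts dashed and Erbb3 on its own scale. Erbb3 had 44 to 83 counts in every library, while the other 6 genes had at most 11.

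S100b was the most counted member after Erbb3 and is an EF-hand protein of the glial cytoplasm. The gene spans bases 76253853 to 76261159 of chromosome 10 (GRCm38, GENCODE, plus strand). Counted molecules were 5, 6, 2 and 2 in WT_SE mice 1, 2, 3 and 5, against 4, 7, 11, 7 and 5 in WT_EE mice 1 to 5. All 5 WT_EE libraries were above the floor of 3 counts and 2 of the 4 WT_SE libraries were, but WT_SE mice 1 and 2 stood within the WT_EE range. The levels were 10.5 ± 5.30 CPM in WT_SE (SD, n = 4) and 18.1 ± 7.41 CPM in WT_EE (SD, n = 5), a log2 fold change of 0.70 with a 95% interval from -0.28 to 1.68 (unadjusted p-value 0.155, Benjamini-Hochberg adjusted p-value 0.752, edgeR). The exact permutation test of the normalized values gave a two-sided p of 0.127. Since fat cells also make S100b, it was set beside the adipocyte markers, whose summed level ran from 120 to 1276 CPM in WT_SE and from 134 to 702 CPM in WT_EE. The library with the most Adipoq, WT_SE mouse 1, had 5 counts of S100b. WT_EE mouse 3, the next in Adipoq with 29 counts, had the most S100b, 11 counts. WT_SE mice 2 and 5 and WT_EE mouse 5, without a count of Adipoq, had 6, 2 and 5 counts of S100b. With the adipocyte sum as a covariate the log2 fold change was 0.65, and without WT_SE mouse 1 it was 0.83. S100b overlaps Dip2a on the opposite strand (14 to 29 counts per library), and a strand setting of the counting is not given in the sources used here.

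Sox10 spans bases 79154908 to 79165240 of chromosome 15 (minus strand). Its molecules numbered 6, 3, 1 and 2 counts in WT_SE mice 1, 2, 3 and 5 and 4, 7, 2, 6 and 2 in WT_EE mice 1 to 5. The highest WT_SE library stood above 3 of the 5 WT_EE libraries on the normalized scale, where the groups were at 8.22 ± 5.37 CPM in WT_SE (SD, n = 4) and 12.1 ± 8.95 CPM in WT_EE (SD, n = 5). The log2 fold change was 0.36 with a 95% interval from -0.86 to 1.58 (unadjusted p-value 0.552 and adjusted p-value 0.925, edgeR; exact permutation test, two-sided, p = 0.46). WT_EE mice 2 and 4, at 24.4 and 18.6 CPM, had the most Sox10 and also the highest summed level of smooth muscle markers. The same mice were also highest for the epithelium markers (3678 and 3829 CPM) and the enteric neuron markers (1007 and 983 CPM). No fit had an epithelium or neuron covariate. With the mean of the smooth muscle markers as a covariate the sign turned, to -0.29 (unadjusted p-value 0.647). Of the markers of melanocytes, another Sox10-bearing lineage, Tyr, Tyrp1 and Mlana had 0 counts in every library, and Pmel and Dct had 0 to 3 counts per library, with 5 and 12 molecules in all. The part of melanocytes in the Sox10 values was not tested.

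Foxd3 and Cdh19 were at levels like that of Sox10. Foxd3 spans bases 99656299 to 99658622 of chromosome 4 (plus strand) and had 2, 5, 3 and 2 counts in WT_SE and 3, 3, 4, 5 and 6 counts in WT_EE. It was the most even of the members, with a chi-square per degree of freedom over the 9 libraries of 0.545, where counting error alone gives about 1. The groups overlapped over most of their range, at 8.69 ± 4.16 CPM in WT_SE (SD, n = 4) and 11 ± 3.68 CPM in WT_EE (SD, n = 5), a log2 fold change of 0.32 with an interval from -0.79 to 1.43 (adjusted p-value 0.927, edgeR). Cdh19 spans bases 110888326 to 110977584 of chromosome 1 (minus strand) and was the most uneven of the low members, with a chi-square per degree of freedom of 1.98. It had 1, 9, 4 and 4 counts in WT_SE and 6, 4, 3, 5 and 0 counts in WT_EE. Both groups held a library at or near 0, WT_EE mouse 5 and WT_SE mouse 1, and with 13 ± 9.27 CPM in WT_SE (SD, n = 4), 9.78 ± 6.44 CPM in WT_EE (SD, n = 5) and a log2 fold change of -0.46 with an interval from -1.66 to 0.75 (adjusted p-value 0.915, edgeR). This sign rested on WT_SE mouse 2, which had 9 counts, and the value was 0.09 without it. Cdh19 also overlaps the predicted transcript Gm36944 on the same strand, which had 0 to 11 counts per library.

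Gfap and Sox2 were at the limit of detection. Gfap, the filament gene of glia, spans bases 102887336 to 102900912 of chromosome 11 (minus strand). WT_SE mice 1, 2, 3 and 5 had 2, 0, 2 and 1 counts, none above the floor. WT_EE mice 1 to 5 had 5, 1, 3, 4 and 0 counts, 2 of them above it. Its share of all molecules was 1.87 times as large in WT_EE, with a counting interval from 0.626 to 6.70 (exact, conditional on 18 molecules), which spans a decrease as well as a large increase (unadjusted p-value 0.323, edgeR). Sox2, at chromosome 3 from 34650405 to 34652461 on the plus strand, had 0, 2, 1 and 0 counts in WT_SE and 1, 1, 0, 0 and 0 counts in WT_EE. All 9 libraries were at or under the floor and 5 of them were at 0, so no fold change is read from it. Sox2 lies inside the noncoding gene Sox2ot on the same strand, which had 0 to 2 counts per library. No difference in either gene was detectable at this depth.

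Erbb3, the neuregulin receptor with the highest count among the members, spans bases 128567523 to 128589652 of chromosome 10 (minus strand). Its counts were nearly equal in WT_SE, 66, 66, 68 and 68 in mice 1, 2, 3 and 5, and spread in WT_EE, 76, 55, 83, 44 and 52 in mice 1 to 5. Scaled to library size, WT_SE ran from 172 to 230 CPM and WT_EE from 120 to 192 CPM, so WT_EE mice 1, 4 and 5, at 164, 136 and 120 CPM, stood below every WT_SE mouse and WT_EE mice 2 and 3 stood within the WT_SE range. Erbb3 averaged 193 ± 25.4 CPM in WT_SE (SD, n = 4) and 159 ± 30.1 CPM in WT_EE (SD, n = 5). The log2 fold change was -0.28 with a 95% interval from -0.59 to 0.04 (unadjusted p-value 0.0828 and adjusted p-value 0.70, edgeR; exact permutation test, two-sided, p = 0.127). As a fold the interval runs from 0.662 to 1.03, the narrowest of the 7 members. Without WT_EE mouse 2 the value was -0.34, with an unadjusted p-value of 0.0402.

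**Figure D2:**
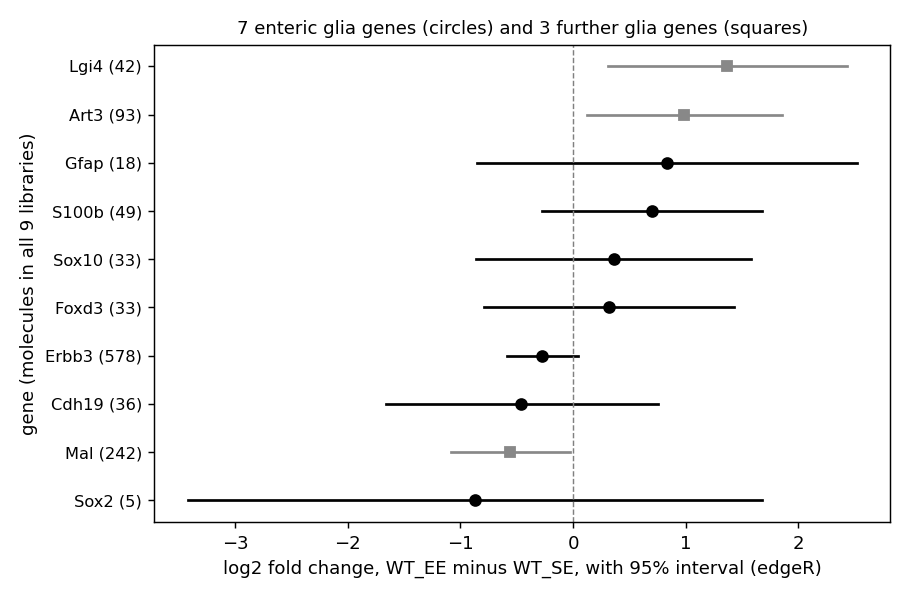
Log2 fold change between environments (horizontal axis, WT_EE minus WT_SE) with its 95% interval from edgeR for the 7 members (black circles) and the further glia genes Lgi4, Art3 and Mal (grey squares), with all molecules counted per gene in brackets on the vertical axis. The intervals of all 7 members include 0, and that of Erbb3 (-0.59 to 0.04) is the shortest.

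Erbb3 was set beside the tissue it could come from. Over the 9 libraries its log2 level and the mean of the epithelium markers had a Pearson's r of -0.03 (exact permutation p = 0.943) and a Spearman's rho of 0.18 (exact permutation p = 0.644). With the mean of the smooth muscle markers, r was -0.31 (exact permutation p = 0.432) and rho was -0.18 (exact permutation p = 0.644). With Erbb2, the receptor that pairs with Erbb3, r was 0.74 (exact permutation p = 0.0242, adjusted 0.0969 over the 4 relations computed) and rho 0.37 (exact permutation p = 0.336). Without the 2 libraries farthest from the median of Erbb2, r was -0.08, so this relation rests on those libraries. The fourth relation, of S100b with the adipocyte sum, had an r of 0.38 (exact permutation p = 0.300) and a rho of 0.43 (exact permutation p = 0.250). Without the 2 farthest libraries, r was 0.46 for the epithelium markers, -0.49 for smooth muscle and 0.66 for S100b with the adipocyte sum. All adjusted values of the other 3 relations were at least 0.577 for r and, for all 4, 0.644 for rho. Each environment held fewer than 6 mice, so no relation was computed within it.

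Among 20 further enteric glia genes, 18 could be tested and 4 had an unadjusted p-value under 0.05, of which 3 were higher and 1 was lower in WT_EE, where 7.65% of all genes tested passed in either direction. None passed Benjamini-Hochberg adjustment over all genes. Their median log2 fold change was -0.02, with 8 above and 10 below 0. Fabp7 had 2 molecules in all and was not tested.

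Lgi4, a secreted protein by which glial cells of peripheral nerve mature, had 2, 3, 1 and 3 counts in WT_SE and 5, 8, 8, 6 and 6 counts in WT_EE. Every WT_SE library was at or under the floor and every WT_EE library above it. The normalized values of the groups did not overlap, which held for 2.58% of all genes tested. The share of molecules was 2.64 times as large in WT_EE, with a counting interval from 1.23 to 6.27 (unadjusted p-value 0.0128, adjusted p-value 0.458, edgeR; exact permutation test, two-sided, p = 0.0159). The fitted log2 fold change of 1.37 was 1.01 with the library-name digit as a covariate (p-value 0.118) and 1.03 without WT_SE mice 1 and 3 (p-value 0.105).

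Art3, an ADP-ribosyltransferase gene, had 11, 10, 1 and 3 counts in WT_SE and 10, 17, 8, 10 and 23 in WT_EE, with a fitted log2 difference of 0.98 (standard error 0.42, unadjusted p-value 0.0261, adjusted p-value 0.549, edgeR; exact permutation test, two-sided, p = 0.135). With the smooth muscle mean as a covariate it was 0.71 (p-value 0.108), and leaving out WT_SE mouse 3 or 5 or WT_EE mouse 2 or 5 gave 0.70 to 0.78, all with p-values above 0.05. Mal, a membrane protein gene of myelin that is also made by epithelium, went the other way. It had 24, 42, 28 and 29 counts in WT_SE against 49, 13, 17, 12 and 28 in WT_EE, with a fitted log2 difference of -0.56 (standard error 0.26, unadjusted p-value 0.0373, adjusted p-value 0.603, edgeR; exact permutation test, two-sided, p = 0.151), and WT_EE mouse 1 at 106 CPM was above 3 of the 4 WT_SE mice. Leaving out WT_SE mouse 2 or 3 or WT_EE mouse 2, 3 or 4 gave -0.52 to -0.38, all with p-values above 0.05, and the smooth muscle mean as a covariate gave -0.36 (p-value 0.155). Scn7a, a sodium channel gene of glia, ranged over 8 to 30 counts in WT_SE, 14 to 31 in WT_EE, with a log2 fold change of -0.14 and an interval from -0.70 to 0.42. Entpd2, an ATP-splitting enzyme of the glial surface, had 2 to 16 and 4 to 13 counts, with a log2 fold change of -0.65 and an interval from -1.46 to 0.16.

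Myelinating Schwann cells, which share Mal, were looked at through their own genes. Prx and Mag had 0 to 3 counts per library. Of the 5 genes of that list tested, 0 had an unadjusted p-value under 0.05, where 7.65% of all genes tested did. Its 2 well counted genes, Mbp and Pmp22, are also made outside glia, and Pmp22 was at 246 ± 70.4 CPM in WT_SE (SD, n = 4) and 273 ± 60.8 CPM in WT_EE (SD, n = 5).

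**Figure D3:**
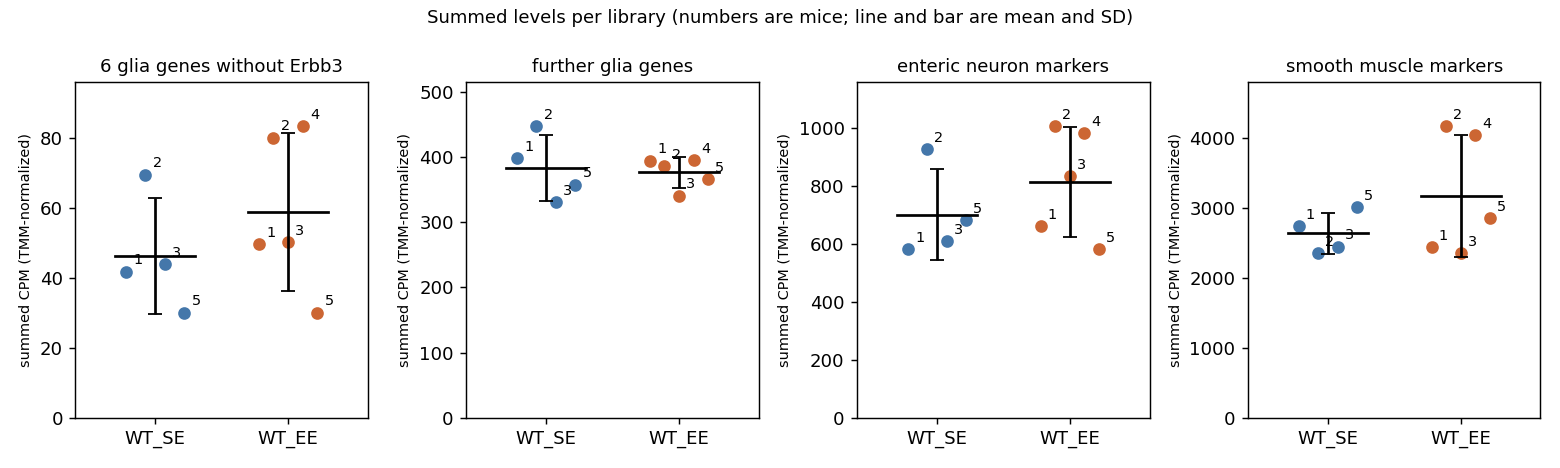
Summed TMM-normalized CPM per library (vertical axes from 0) of the 6 members without Erbb3, the 20 further glia genes, the enteric neuron markers and the smooth muscle markers in WT_SE and WT_EE, with mouse numbers beside the points and the mean and SD as line and bar. WT_SE mouse 2 and WT_EE mice 2 and 4 are the highest libraries for the 6 glia genes (69.6 to 83.5 CPM) and also for the neuron markers, and the groups overlap in all panels.

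Glia were next set against the neurons they surround. The 20 enteric neuron markers summed to 582 to 927 CPM in WT_SE and 581 to 1007 CPM in WT_EE. The 3 libraries with the most neuron RNA, WT_EE mice 2 and 4 and WT_SE mouse 2, were also the 3 with the most RNA of the 6 members without Erbb3. For every 100 counts of neuron markers there were 4.4 to 7.51 counts of these 6 members in WT_SE and 5.18 to 8.49 in WT_EE, so the ratio overlapped between environments. Of the neuron markers, 15 had log2 fold changes above 0 and 5 below, with a median of 0.23, where 8920 of all 17441 genes tested were above 0. An unadjusted p-value under 0.05 was reached by 1 of the 20, where 7.65% of all genes tested reached it. This was Nos1, the neuronal nitric oxide synthase gene of inhibitory motor neurons, at 42.7 ± 19.6 CPM in WT_SE (SD, n = 4) and 71.7 ± 21.5 CPM in WT_EE (SD, n = 5), with an unadjusted p-value of 0.0211 and an adjusted p-value of 0.52 in edgeR (exact permutation test, two-sided, p = 0.111). Stmn2, the most counted of the list, was at 78.8 ± 21.6 and 85.1 ± 23.8 CPM. Elavl4 and Uchl1, genes of all or most enteric neurons, had log2 fold changes of -0.18 and 0.44, neither of which passed.

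The tissue layers that carry the plexuses were also compared. Of the 10 smooth muscle markers, 4 (Acta2, Des, Smtn and Lmod1) were higher in WT_EE with an unadjusted p-value under 0.05, where 7.65% of all genes tested passed in either direction, 0 passed adjustment, and the median log2 fold change was 0.29. The exact permutation tests of these 4 genes gave two-sided p-values of 0.103 (Smtn) to 0.278 (Acta2). The sum of the markers was 2359 to 3012 CPM in WT_SE. In WT_EE it was 4176 and 4042 CPM in mice 2 and 4 and 2356 to 2858 CPM in the other 3 mice. Acta2, the most counted of them, was at 368 ± 58 CPM in WT_SE and 480 ± 174 CPM in WT_EE. Of the 10 epithelium markers 1 (Lgals4, log2 fold change 0.31) was higher at the same threshold, with a list median of 0.06, and Cdh1, the most counted, was at -0.07. Of the 10 adipocyte markers 1 (Plin1, log2 fold change -1.80) was lower, with 25 counts in WT_SE mouse 1 and 0 to 7 in the other libraries. The adipocyte median was -0.30, and Fabp4, the most counted, was at 0.08. Of the 5 position genes tested, Hoxd11 was lower (log2 fold change -0.97) and the list median was -0.69, which is also the value of Slc10a2. The part of muscle, fat and colon position in the glial values was not tested beyond the covariate values given beside them.

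The ligands, receptors and signal carriers around Erbb3 were compared next. Of 20 neuregulin and ErbB pathway genes, 18 were tested and 2 had an unadjusted p-value under 0.05, 1 in each direction, where 7.65% of all genes tested passed. The median log2 fold change was 0.11, and 0 genes of the list passed the adjustment. Areg, a ligand of the EGF receptor and not of Erbb3, was higher in WT_EE, at 34.6 ± 17.0 CPM in WT_SE (SD, n = 4) and 75.2 ± 28.6 CPM in WT_EE (SD, n = 5), a log2 fold change of 1.06 (standard error 0.30, unadjusted p-value 0.00124, adjusted p-value 0.206, edgeR; exact permutation test, two-sided, p = 0.0794). WT_SE mice 1 and 5, at 49.6 and 49.2 CPM, stood above WT_EE mice 1 and 3, at 47.5 and 45.9 CPM. Grb2, the adaptor that joins active receptors to the Ras pathway, was lower, at 208 ± 25.6 CPM in WT_SE (SD, n = 4) and 162 ± 9.11 CPM in WT_EE (SD, n = 5). Its log2 fold change was -0.36 (unadjusted p-value 0.0172, adjusted p-value 0.489, edgeR). The groups of Grb2 did not overlap, which held for 2.58% of all genes tested (two-sided exact permutation p = 0.00794, the lowest possible here). Without WT_SE mouse 1 or mouse 3, Grb2 was at -0.30 with p-values of 0.074 and 0.0566, and with the library-name digit as a covariate at -0.20 (p-value 0.278). Nrg1, a neuregulin that binds Erbb3, ranged over 2 to 10 counts in WT_SE, 3 to 11 in WT_EE, with a log2 fold change of 0.11 and an interval from -0.75 to 0.97. Nrg2, another neuregulin, had 2 to 9 and 2 to 6 counts, with a log2 fold change of -0.39 and an interval from -1.42 to 0.64. Erbb2 had 30 to 42 and 27 to 48 counts, with a log2 fold change of -0.32 and an interval from -0.71 to 0.08. Erbb4, the other neuregulin receptor, was not listed in any library.

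Among the 10 neurotrophic factor and receptor genes, 9 were tested and 1 passed an unadjusted p-value of 0.05, where 7.65% of all genes tested did. This was Ret, the receptor through which Gdnf acts on enteric neurons, with 2, 5, 2 and 4 counts in WT_SE and 9, 8, 10, 8 and 6 in WT_EE by mouse in the order of their numbers. It was at 9.21 ± 3.96 CPM in WT_SE (SD, n = 4) and 21.6 ± 5.33 CPM in WT_EE (SD, n = 5), a log2 fold change of 1.16 (standard error 0.46, unadjusted p-value 0.0153, adjusted p-value 0.477, edgeR; exact permutation test, two-sided, p = 0.0238). The groups met at 13.9 CPM, in WT_SE mouse 2 and WT_EE mouse 5. With the library-name digit as a covariate Ret was at 0.75 (p-value 0.174), and without WT_SE mouse 1 at 0.96 (p-value 0.058). The summed level of the list was 36.5 and 37.2 CPM in WT_SE mice 1 and 3, whose library names hold the other digit. It was 49.2 CPM in WT_SE mouse 5, and 75.2 CPM in WT_SE mouse 2, within the WT_EE range of 72.1 to 95.9 CPM. All 9 tested genes of this list had log2 fold changes above 0, where 8920 of all 17441 genes tested did. Their median was 0.75, but some rest on few molecules, such as Artn with 7 in all. Gfra2, the most counted of them, was at 0.75 (unadjusted p-value 0.0972), and Gdnf, the growth factor that enteric glia and muscle release, at 0.15.

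**Figure D4:**
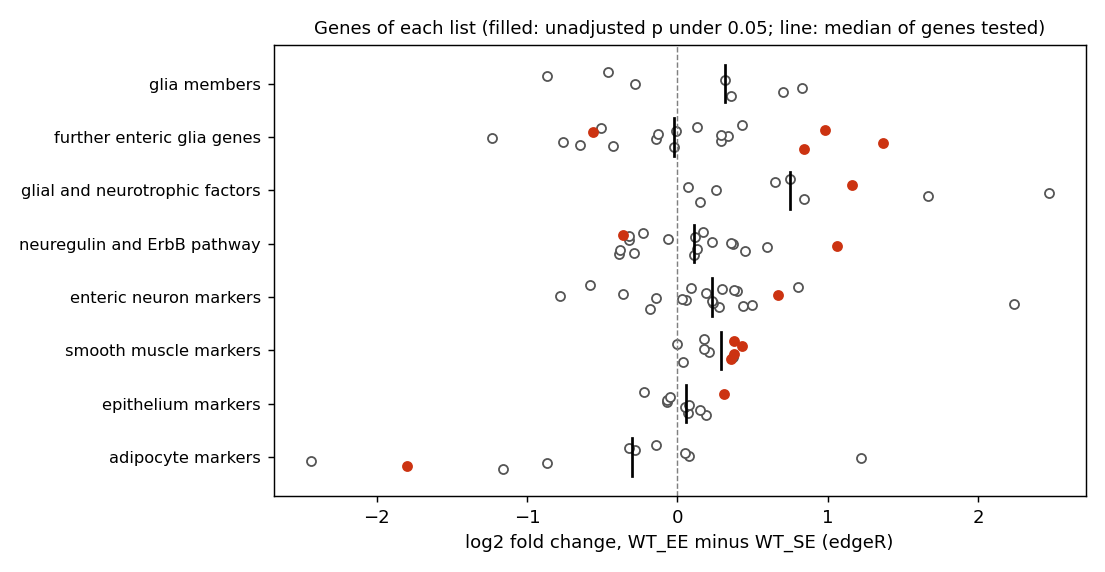
Log2 fold change between environments (horizontal axis, WT_EE minus WT_SE, edgeR) for each tested gene of 8 lists (vertical axis), filled where the unadjusted p-value was under 0.05, with the median of each list as a line. None of the 7 members is filled, and the medians run from -0.30 for the adipocyte markers to 0.75 for the neurotrophic genes.

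The genes whose level ran most like that of the glia genes over the 9 libraries were listed as a description. Among 8492 genes with a mean of at least 10 counts, the 5 closest to the sum of the 6 members without Erbb3 were Cadm1, a cell adhesion gene (r = 0.97), Ndufs6 (r = 0.96), Kcnq1ot1 (r = 0.94), Zc3h10 and Sgsm2 (both r = 0.92). The 5 closest to Erbb3 were Srpk1 (r = 0.97), Ypel3 (r = 0.95), Kdm6a and Lgals8 (both r = 0.93) and Atg14 (r = 0.92). These values are the highest of 8492 over 9 libraries that differ in depth and tissue makeup, and none of the genes named is on a marker list used here.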

How the data were processed

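Per the labels, total RNA of the upper colon was made into QuantSeq 3′ mRNA libraries, and the authors deposited molecule counts per Ensembl gene, as whole numbers without normalization. The submitters' processing notes name fastp 0.20.0, STAR 2.7.0f, featureCounts 1.6.0 of Subread and UMI-tools, with the build GRCm38.p6. Their order and the strand setting are not given in the sources used here. Genes not listed in a library were set to 0, and 22248 of 22262 genes had a symbol in GENCODE.

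The 17441 genes that reached 4 CPM in any library were tested. Counts were normalized by TMM and compared by edgeR's quasi-likelihood test (edgeR 4.0.16, R 4.3.3) with the environment as the only term and Benjamini-Hochberg adjustment over all genes tested. Standard errors and 95% intervals of log2 fold changes came from the F statistic. For single genes, group labels were also permuted exactly and two-sided over all 126 partitions of the 9 mice (smallest p 0.00794, python 3.11.15, scipy 1.17.1). Ratios of molecule shares have exact conditional binomial intervals. log2 levels for correlations used a prior count of 2. Alternatives used DESeq2 1.42.0, limma 3.58.1, other filters, scalings and covariates, and mice left out in turn.

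The members and all lists were chosen with earlier results of these data known. Named are the members, the genes of each list with an unadjusted p-value under 0.05, the most counted gene of each list, and the 5 genes most alike over libraries with a mean of at least 10 counts. Some genes that this rule takes are not reported here by name but are in the counts. Other genes named in a list were chosen after their values were seen. Nothing says that mice are independent beyond their labels. Same-numbered mice of the environments are different animals.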

Additional observations from a re-analysis of the deposited data

Results flagged for a closer look

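Among 30 groups of 4 or 5 mice looked at for 15 glia, ErbB and neurotrophic genes, 1 had a mouse set apart from the rest of its group, and chance alone gives about 1 in 20. Grb2 in WT_EE mouse 1 stood at 147 CPM (68 counts), below the 164 to 170 CPM of the other 4 WT_EE mice. None of the 7 members held such a value in either group.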

How the results depend on the processing

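Among the 7 members, 140 values came from the 21 alternatives (edgeR's own filter kept Erbb3 only, and Sox2 was not tested without WT_SE mouse 2), of which 1 reached an unadjusted p-value under 0.05, Erbb3 without WT_EE mouse 2. With 1 mouse left out in turn the number of members past 0.05 thus ran from 0 to 1. The sign turned in 2 values, for Sox10 with the smooth muscle mean as a covariate (-0.29) and for Cdh19 without WT_SE mouse 2 (0.09, the highest of the values with 1 mouse left out, which went down to -0.81). The log2 fold change ran from 0.49 to 1 for S100b, 0.43 to 2.04 for Gfap and -0.34 to -0.18 for Erbb3. Of the further genes, Areg had a p-value under 0.05 in 21 of 21 alternatives, Lgi4 in 18 of 20, Ret in 17 of 20, Grb2 in 17 of 21, Art3 in 12 of 21, Mal in 11 of 21 and Gfra2 in 1 of 20. All of these but Gfra2 were named because they passed in the main fit. The alternatives reuse the same mice, so these tallies are no independent support. Over all genes, 1334 had an unadjusted p-value under 0.05. This count was 804 with edgeR's own filter, under which fewer genes were tested, 643 with DESeq2's Wald test, 688 with the library-name digit as a covariate and 680 without WT_SE mice 1 and 3, where fewer samples entered, and 899 to 1581 with 1 mouse left out in turn. The cause of the other changes was not tested. With the mouse number as a replicate block, which marks different animals (correlations of same-numbered mice -0.02 to 0.13, and 0 of 4 pairs the best match), 1170 genes and 0 members had a p-value under 0.05. The fit with the adipocyte sum was added after the data were seen. Members other than Erbb3 had at most 11 counts in any library, and the interval of Erbb3 also included 0. The part of depth in these results was not tested.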
